A study of Homo sapiens with 15 samples.

Results

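Pellets from U2OS cytosolic extracts (CEs) incubated with double-stranded (ds) RNA were compared with pellets from CEs incubated without an addition (mock). The comparison holds 6 of the 15 libraries of the study, chosen by the ending of their titles. These are 3 dsRNA and 3 mock libraries that share the replicate numbers 1 to 3. U2OS is a human osteosarcoma cell line. The labels give its genotype as wild type, whereas the study describes condensates of a YFP-G3BP1 line, and the files do not settle which cells were used. CEs were kept at 37 °C for 2 h with 250 nM dsRNA or with nothing added, and the sedimented material went into poly(A)-selected RNA sequencing. Silvestrol pellets (2 µg/ml, an inhibitor of the RNA helicase eIF4A) serve below as another comparison. Input CEs and pellets made with 1% of the crowding agent PEG enter only the filter on low counts.

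Double-stranded RNA is recognised in the cytosol by the kinase PKR, which phosphorylates the alpha subunit of the initiation factor eIF2 and so stops translation at its start. The mRNAs released from ribosomes can gather with G3BP1, G3BP2 and other RNA-binding proteins into stress granules (SGs). Silvestrol blocks the start of translation without PKR. A pellet library gives each RNA as its share of the poly(A) RNA that sedimented, so that less of an RNA in the pellet and less of it in the whole extract cannot be told apart.

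With dsRNA, 441 of the 16612 genes tested were lower than in mock pellets (2.65%) and 25 were higher (0.15%), together 2.81% of all genes. The largest falls left under 50% of the mock level. They were found for KRT10, a keratin, RPL9, a protein of the large ribosomal subunit, PSMA5, a subunit of the proteasome core, and COPB1, a subunit of the COPI vesicle coat. The mRNAs of PKR itself (EIF2AK2) and of the SG scaffolds G3BP1 and G3BP2 also fell. The rises were smaller, and among genes with an average of at least 3 log2 CPM none exceeded that of MT-ND6 (0.40 on the log2 scale), which the mitochondrial genome encodes.

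Levels are given as CPM, the counts of a gene per 1000000 counts after scaling with edgeR's TMM factors. Genes were tested when 2 or more replicates in every one of the 5 conditions reached 10 counts. A gene was called at an adjusted p under 0.05 in edgeR's quasi-likelihood test with the replicate number as a block, which sets each dsRNA library against the mock library of the same number. Without the block edgeR called 0 genes, although 374 had an unadjusted p under 0.05, and DESeq2 called 65 lower and 0 higher. The coefficient of biological variation was 5.72% with the block and 18.3% without it. Nothing in the labels says that libraries of the same number came from 1 extract.

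Total counts ranged from 32477292 to 39903656 in mock and from 33577813 to 39490923 in dsRNA libraries. The osteoblast lineage genes RUNX2, SPARC and COL1A1 were expressed in all 6 libraries, whereas SP7 and IBSP stayed at 0.189 CPM or lower. The 6 blood markers looked at stayed under 0.5 CPM, and of 6 hepatocyte markers SERPINA1 alone passed the filter on low counts, at 7.22 to 17.3 CPM. Of 5 epithelial markers KRT8 was at 361 to 412 CPM, KRT18 at up to 201 CPM and EPCAM at 5.42 to 9.11 CPM. Replicate 1 stood apart from replicates 2 and 3 in both groups. Deviations from the group means correlated at 0.842, 0.648 and 0.610 between libraries of the same number (1, 2 and 3), and at -0.711 to -0.671 between replicate 1 and the others. The deviations of a gene sum to 0 within a group, so a positive value for the same number brings a negative one for another number. They also correlated between replicates 2 and 3, at 0.537 (mock 2 with dsRNA 3) and 0.511 (mock 3 with dsRNA 2), so the pairing of those numbers stands out less than that of replicate 1.

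Most falls were small and went the same way in nearly every pair. The median over the 441 lower genes was -0.37 on the log2 scale, against 0.012 for all genes tested. In 9 of them the change was -1 or lower, and in 97 it was -0.5 or lower. All but 1 of the 441, CHST6, were lower in 3 of 3 pairs, as were 16.4% of all genes. For 308 of them every dsRNA library lay below every mock library, which held for 4.45% of all genes. The 25 higher genes were higher in 3 of 3 pairs (18.1% of all genes), and for 9 of them every dsRNA library lay above every mock library (2.24%).

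**Figure D1:**
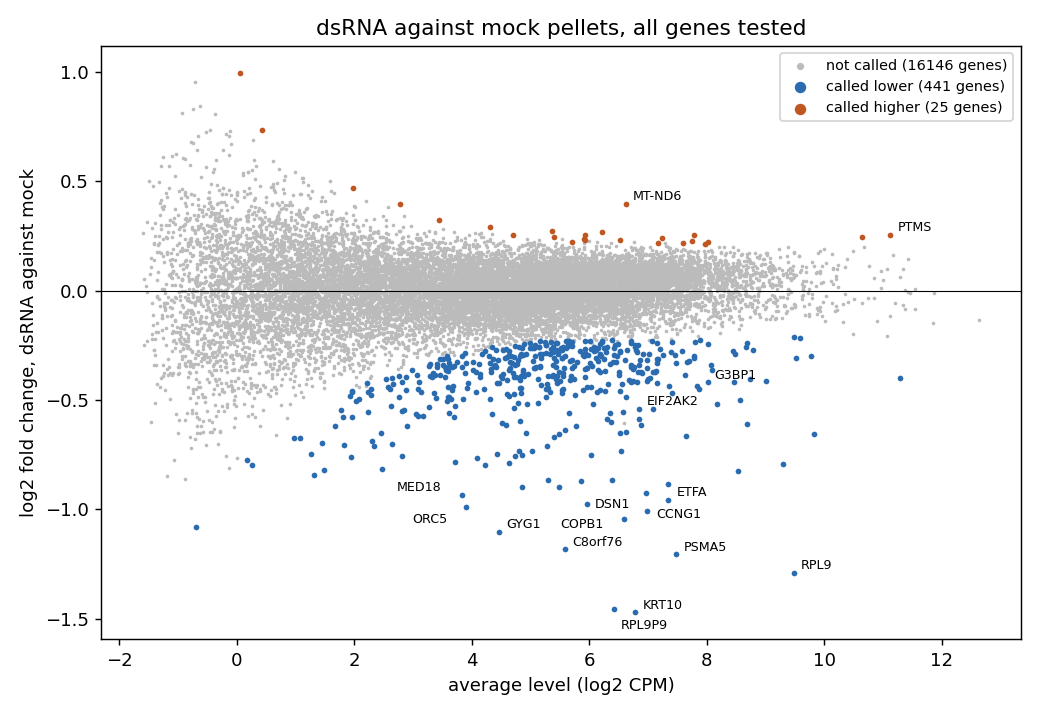
Each point is 1 of the 16612 genes tested, with its average level (log2 CPM) on the horizontal axis and its change between dsRNA and mock (log2 fold change) on the vertical axis. The 441 genes called lower (blue) reach -1.47, whereas 23 of the 25 called higher (orange) stay under 0.5.

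KRT10 (ENSG00000186395, 17:40818117-40822595, minus strand, GRCh38) encodes keratin 10, an intermediate filament protein best known from the epidermis. Its level was 160.5, 188 and 137 CPM in mock replicates 1, 2 and 3, and 66.8, 50.5 and 57.5 CPM in the dsRNA replicates of the same numbers. Every dsRNA library was well below the lowest mock library. The fall left 36.1% of the mock level (-1.47 ± 0.0799 (SE) on the log2 scale, edgeR adjusted p = 1.14e-18).

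RPL9 (ENSG00000163682, 4:39454124-39458948, minus strand) and RPL9P9 (ENSG00000237550, 15:82372196-82372912, minus strand), a processed copy of it, were lower together. RPL9 measured 884, 1224 and 932 CPM in mock and 314, 488 and 451 CPM with dsRNA (-1.29 ± 0.0677 (SE) on the log2 scale, edgeR adjusted p = 4.57e-19). RPL9P9 measured 98.4, 149 and 128 CPM in mock and 34.9, 46.9 and 55.4 CPM with dsRNA (-1.46 ± 0.0725 (SE) on the log2 scale, edgeR adjusted p = 1.08e-19). In neither did the groups overlap. How reads that match both genes were counted is not given in the sources used here, so the values of the copies may not be independent.

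PSMA5 (ENSG00000143106, 1:109399031-109426427, minus strand) encodes an alpha subunit of the 20S proteasome core. Its level was 306, 259 and 183 CPM in mock and 134, 94.4 and 93.9 CPM with dsRNA (-1.21 ± 0.0696 (SE) on the log2 scale, edgeR adjusted p = 8.99e-18). Every dsRNA library lay below every mock library. Of the 14 core subunits tested, PSMA5 alone was called, and the others ranged from -0.24 (PSMA2) to 0.016 (PSMA7). The core subunits were grouped after their values were seen, as were the other families named as such below.

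COPB1 (ENSG00000129083, 11:14443440-14500027, minus strand) encodes the beta subunit of coatomer, the coat of COPI vesicles that return proteins from the Golgi to the endoplasmic reticulum. Its level was 149.6, 131 and 108 CPM in mock and 63.0, 59.9 and 64.1 CPM with dsRNA (-1.05 ± 0.0726 (SE) on the log2 scale, edgeR adjusted p = 5.08e-15). The dsRNA libraries lay close together and below all mock libraries.

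The rest of the 12 largest falls were in genes of varied function. In each of them every dsRNA library lay below every mock library. C8orf76 went from 66.7 ± 10.5 to 29.5 ± 6.49 CPM (SD, n = 3), and it overlaps a readthrough gene named below. GYG1, the glycogenin that primes glycogen synthesis, went from 30.2 ± 8.84 to 13.9 ± 1.96 CPM, and CCNG1, cyclin G1, from 168 ± 18.5 to 83.8 ± 10.8 CPM. Their changes were -1.18, -1.10 and -1.01 on the log2 scale. ORC5, part of the origin recognition complex, went from 19.9 ± 5.01 to 9.90 ± 1.49 CPM, and DSN1, part of the kinetochore, from 82.7 ± 14.0 to 42.2 ± 8.86 CPM. ETFA, a subunit of the electron transfer flavoprotein of mitochondria, went from 217 ± 65.2 to 108 ± 4.58 CPM, and MED18, a Mediator subunit, from 18.7 ± 0.976 to 9.80 ± 1.94 CPM. The changes of these 4 genes ran from -0.99 (ORC5) to -0.93 (MED18, edgeR adjusted p = 3.59e-11, the largest among the 12).

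EIF2AK2 (ENSG00000055332, 2:37099210-37157065, minus strand) encodes PKR, the kinase that dsRNA activates. Its level was 143, 136 and 133 CPM in mock and 100.2, 91.0 and 91.8 CPM with dsRNA. The groups did not overlap, and the pairs differed by a like amount, -0.51, -0.57 and -0.54 on the log2 scale. The fall passed the test (-0.54 ± 0.0636 (SE) on the log2 scale, edgeR adjusted p = 2.66e-08), and DESeq2 without the block also called it (adjusted p = 4.14e-05).

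EIF2S1 (ENSG00000134001, 14:67359997-67386516, plus strand) encodes the alpha subunit of eIF2, the substrate of PKR. It measured 146, 113 and 106 CPM in mock and 116, 105 and 104 CPM with dsRNA. The groups overlapped, and the difference did not pass the test (-0.16 ± 0.0665 (SE) on the log2 scale, edgeR adjusted p = 0.294).

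Among 38 genes of dsRNA sensors and binding proteins, EIF2AK2 was the one called lower (2.63%, beside 2.65% of all genes). DGCR8, which binds primary microRNAs in the nucleus, was the one called higher, from 84.1 ± 4.33 to 98.7 ± 2.24 CPM (0.23 ± 0.0650 (SE) on the log2 scale, edgeR adjusted p = 0.0337), a call that was lost without replicate 2 and without replicate 3. The median of the list was -0.0055. ADAR, an RNA editing enzyme, stood at -0.0024 on the log2 scale, IFIH1 (MDA5) at 0.013, DICER1 at 0.079 and RIGI at -0.22, none of them called. CGAS, a sensor of double-stranded DNA that was not on this list and was named after its value was seen, went from 16.7 ± 1.26 to 12.8 ± 1.97 CPM (-0.38 ± 0.0820 (SE) on the log2 scale, edgeR adjusted p = 0.0025).

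Of 35 genes of the integrated stress response, 2 were called lower (5.71%, beside 2.65% of all genes) and 0 higher. These were EIF2AK2, which is on both lists, and ATF6, a transcription factor of the unfolded protein response (-0.29 ± 0.0697 (SE) on the log2 scale, edgeR adjusted p = 0.00827). The groups of ATF6 overlapped, and its call was lost without replicate 2 and without replicate 3. The other eIF2 kinases, EIF2AK1 (HRI), EIF2AK3 (PERK) and EIF2AK4 (GCN2), had values of -0.042, 0.10 and -0.061 on the log2 scale. ATF4, the transcription factor whose translation rises in this response, measured 451 ± 45.2 CPM in mock and 444 ± 58.8 CPM with dsRNA. Neither these kinases and ATF4 nor the targets DDIT3 (0.13), CHAC1 (0.10) and PPP1R15A (0.14) passed the test.

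Of 38 genes of SG proteins, 4 were called lower and 0 higher (10.5%, beside 2.65% of all genes). G3BP1 (ENSG00000145907, 5:151771045-151812785, plus strand) measured 308, 308 and 272 CPM in mock and 221, 220.3 and 222 CPM with dsRNA (-0.42 ± 0.0622 (SE) on the log2 scale, edgeR adjusted p = 5.49e-06). Its 3 dsRNA libraries were almost level with each other. If the cells carried a YFP-G3BP1 transgene, its reads would add to this gene. G3BP2 (ENSG00000138757, 4:75642782-75724525, minus strand), its paralog, measured 169, 149.8 and 139 CPM in mock and 124, 115 and 114 CPM with dsRNA (-0.37 ± 0.0634 (SE) on the log2 scale, edgeR adjusted p = 6.54e-05). In both genes all dsRNA libraries were below all mock libraries.

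The other called genes of the SG list were OGFOD1, a prolyl hydroxylase that acts on a ribosomal protein (-0.65 ± 0.0694 (SE) on the log2 scale, edgeR adjusted p = 1.87e-09), and TARDBP, which encodes TDP-43 (-0.24 ± 0.0612 (SE) on the log2 scale, edgeR adjusted p = 0.0168). OGFOD1 overlaps NUDT21, a gene on the opposite strand that was also lower (-0.38), and reads of their shared part cannot be assigned from the files. The TARDBP call was lost without replicate 2 and without replicate 3. PABPC1, the main cytoplasmic poly(A)-binding protein, came close to the threshold (-0.21 ± 0.0621 (SE) on the log2 scale, edgeR adjusted p = 0.0597). CAPRIN1 and USP10, partners of G3BP1, stood at -0.11 and -0.050, TIA1 and TIAL1 at -0.0025 and 0.0042, and UBAP2L at 0.087, none of them called. The median of the SG list was -0.0074.

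Of 61 genes of transport through the nuclear pore, 12 were called lower and 0 higher (19.7%, beside 2.65% of all genes), 9 of them importins and exportins and 3 nucleoporins. NUP43, a subunit of the Y complex of the pore, measured 74.1, 64.3 and 60.8 CPM in mock and 44.7, 42.3 and 42.3 CPM with dsRNA (-0.62 ± 0.0665 (SE) on the log2 scale, edgeR adjusted p = 2.03e-09). XPO5, the exporter of microRNA precursors, measured 122, 114 and 109 CPM in mock and 89.0, 79.6 and 77.9 CPM with dsRNA (-0.49 ± 0.0643 (SE) on the log2 scale, edgeR adjusted p = 4.67e-07). In both genes all dsRNA libraries were below all mock libraries. This held for only 5 of the 61 genes of the list, beside 4.45% of all genes, so most of the 12 called genes overlapped between groups.

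CSE1L, which recycles importin alpha, and NUP160, of the Y complex, both fell by 0.37 on the log2 scale. KPNA1, IPO11, IPO7, NUP93, IPO5, XPO4, XPO7 and KPNB1 made up the rest, from -0.34 (IPO11) to -0.21 (KPNB1). XPO1, the main exporter of proteins with nuclear export signals, was not called at -0.017, nor were KPNA2 at -0.15 and NUP98 at 0.12. The median of the list was -0.053 in the fit, and -0.19, -0.0067 and -0.0071 in pairs 1, 2 and 3. The count fell to 4 without replicate 2 and to 8 without replicate 3, and it was 13 without replicate 1 and 2 with all 5 groups in 1 fit.

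In the secretory and vesicle transport list, 15 of 196 genes were called lower and 0 higher (7.65%, beside 2.65% of all genes). Besides COPB1, COPG2, the gamma-2 subunit of coatomer, measured 65.6, 61.0 and 49.0 CPM in mock and 33.2, 30.5 and 30.1 CPM with dsRNA (-0.90 ± 0.0693 (SE) on the log2 scale, edgeR adjusted p = 1.37e-13). Its paralog COPG1 was not called, at 0.0035. SEC23B, of the COPII coat of vesicles that leave the endoplasmic reticulum, measured 115, 116 and 93.2 CPM in mock and 70.1, 56.1 and 52.2 CPM with dsRNA (-0.86 ± 0.0687 (SE) on the log2 scale, edgeR adjusted p = 3.51e-13), and its paralog SEC23A was not called, at -0.14. Neither COPG2 nor SEC23B overlapped between groups. SEC24A, also of COPII, fell by 0.61 on the log2 scale, and SEC24B, SEC24C and SEC24D were not called, at 0.056, 0.0082 and -0.081.

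Over the whole coats, 3 of 9 coatomer genes (COPB1, COPG2 and COPB2, at -0.40) and 3 of 11 COPII genes (SEC23B, SEC24A and SAR1A, at -0.34) were called lower, beside 2.65% of all genes. These small families were chosen after their values were seen, so the counts only describe them. VPS35, the core of the retromer that recycles receptors from endosomes, was lower as well (-0.55 ± 0.0696 (SE) on the log2 scale, edgeR adjusted p = 1.29e-07). The other calls of the list were in VPS8, VPS33A, VPS41, KDELR3, RAB6A and the adaptor subunits AP4S1 (-0.82), AP1S3 and AP2B1 (-0.23).

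Of 86 genes of cytosolic ribosomal proteins, 7 were called lower and 0 higher (8.14%, beside 2.65% of all genes). After RPL9 the largest fall was that of RPS23, from 918, 1302 and 1107 CPM in mock to 499, 849 and 801 CPM with dsRNA (-0.65 ± 0.0662 (SE) on the log2 scale, edgeR adjusted p = 4.39e-10). No dsRNA library of RPS23 reached the lowest mock library. RPS3A and RPLP1 fell by 0.41 and 0.40 on the log2 scale. RPL7L1, a paralog of RPL7 that the list also counts, was at -0.33, and RPL21 and RPL6 were at -0.27 and -0.22. All dsRNA libraries lay below all mock libraries in 3 of the 86 genes, beside 4.45% of all genes. The median of the list was -0.074 in the fit, and -0.18, -0.064 and 0.010 in pairs 1, 2 and 3. Without replicate 2, 4 members were called. Many of these genes have processed copies elsewhere in the genome, and reads may have been divided among them in counting.

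Of the 39 aminoacyl-tRNA synthetases, which charge tRNAs with amino acids, 5 were called lower and 0 higher (12.8%, beside 2.65% of all genes). IARS2, the mitochondrial isoleucyl enzyme, measured 262, 205 and 165 CPM in mock and 128, 103 and 107 CPM with dsRNA (-0.88 ± 0.0682 (SE) on the log2 scale, edgeR adjusted p = 1.37e-13). Its groups did not overlap. IARS1, the cytosolic counterpart, fell by 0.44 on the log2 scale, NARS1 by 0.41, KARS1 by 0.32 and HARS2 by 0.29. Among 61 translation factors 2 were called lower (3.28%), PAIP2, an inhibitor of PABPC1, at -0.27 and ETF1, the factor that releases finished proteins, at -0.26. The PAIP2 call was lost without replicate 2, and that of ETF1 without replicate 1 and without replicate 3.

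Among mitochondrial proteins encoded in the nucleus, 5 of 80 genes of the respiratory chain were called lower and 0 higher (6.25%, beside 2.65% of all genes). ATP5F1A, the alpha subunit of ATP synthase, measured 359.8, 361 and 299 CPM in mock and 264, 225 and 224 CPM with dsRNA (-0.52 ± 0.0631 (SE) on the log2 scale, edgeR adjusted p = 6.62e-08). ATP5F1C, NDUFS1, ATP5MC3 and COX5A were at -0.35, -0.33, -0.31 and -0.26. Of 78 mitochondrial ribosomal proteins 6 were lower and 0 higher (7.69%). MRPL3 measured 115, 96.0 and 88.7 CPM in mock and 76.0, 61.3 and 60.4 CPM with dsRNA (-0.60 ± 0.0655 (SE) on the log2 scale, edgeR adjusted p = 3.2e-09). Neither ATP5F1A nor MRPL3 overlapped between groups. MRPS16, MRPS17, MRPL30, MRPL45 and MRPL44 were also lower, at -0.35, -0.33, -0.29, -0.30 and -0.28. Without replicate 2, 1 respiratory and 3 ribosomal genes were called, and DESeq2 with the block called 2 of the ribosomal ones.

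Among 260 solute carriers 6 were called lower (2.31%), a share close to the 2.65% of all genes. Of these, SLC25A3, SLC25A15, SLC25A17 and SLC25A5 belong to the mitochondrial carrier family, which was not counted on its own. SLC25A3, the phosphate carrier, measured 376, 454 and 379 CPM in mock and 283, 306 and 313 CPM with dsRNA (-0.42 ± 0.0630 (SE) on the log2 scale, edgeR adjusted p = 6.77e-06). SLC25A15, SLC25A17 and SLC25A5 were at -0.49, -0.42 and -0.26, and SLC35E3 and SLC44A1 at -0.30 and -0.23. Without replicate 2, 2 of the carriers were called.

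In protein folding and turnover, 5 of 54 genes of the CCT chaperonin and the proteasome were lower and 0 higher (9.26%, beside 2.65% of all genes). Besides PSMA5 they were PSMD14 at -0.39, CCT4 at -0.30, CCT8 at -0.29 and PSMD13 at -0.29, and without replicate 2, 3 were called. In the ubiquitin system 6 of 146 were lower (4.11%). USP47, a deubiquitinase, measured 172, 135 and 111 CPM in mock and 93.6, 93.7 and 87.1 CPM with dsRNA (-0.59 ± 0.0717 (SE) on the log2 scale, edgeR adjusted p = 6.43e-08). Its groups did not overlap. FBXO7, USP28, UBE3D, FBXO45 and USP12 were at -0.56, -0.52, -0.50, -0.46 and -0.45. Of 73 heat shock proteins and DNAJ co-chaperones, HSPA8 (-0.31) and HSPD1 (-0.24) were lower (2.74%). DNAJC21 (0.22) was higher (1.37%, beside 0.15% of all genes), and all 3 calls were lost without replicate 2.

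In cell division, 8 of 120 genes were lower and 0 higher (6.67%, beside 2.65% of all genes). CDC26, of the anaphase-promoting complex, measured 19.6, 16.7 and 13.0 CPM in mock and 10.8, 8.94 and 8.75 CPM with dsRNA (-0.78 ± 0.0873 (SE) on the log2 scale, edgeR adjusted p = 6.17e-09). The groups did not overlap. CENPW, a histone fold protein of centromeres, was at -0.48, MCM6, of the replicative helicase, at -0.38, and STAG1, of cohesin, at -0.29. CDC16, CENPN, MCM10 and MAD2L1 were at -0.27, -0.26, -0.24 and -0.24. DESeq2 with the block called 4 of the list, as did edgeR without replicate 2, and 5 were called without replicate 3. With an offset for GC content 8 were lower and 6 higher. MDM2, the ubiquitin ligase of p53, was the one call among 40 immediate early and short-lived regulators (2.5%), at -0.28. This call was lost without replicate 2 and without replicate 3.

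All 3 tested subunits of ribonucleotide reductase, the enzyme that makes deoxyribonucleotides, were called lower, beside 2.65% of all genes. The family was looked up after the values were seen, so the count only describes it. RRM1 measured 142, 103 and 92.5 CPM in mock and 84.2, 66.2 and 63.2 CPM with dsRNA (-0.65 ± 0.0661 (SE) on the log2 scale, edgeR adjusted p = 5.05e-10). RRM2B and RRM2 stood at -0.45 and -0.38. The groups of RRM2 overlapped, at 225 ± 71.0 CPM in mock and 172 ± 51.3 CPM with dsRNA (SD, n = 3). In polyamine synthesis, looked up in the same way, 3 of 8 genes were called lower, beside 2.65% of all genes. ODC1, its first enzyme, measured 303, 232 and 205 CPM in mock and 181, 143 and 140.3 CPM with dsRNA (-0.66 ± 0.0628 (SE) on the log2 scale, edgeR adjusted p = 6.3e-11). AMD1 fell by 0.37 on the log2 scale, and AZIN1, a relative of ODC1 that keeps it active, by 0.32. SMS, SRM, AZIN2, OAZ1 and OAZ2 were not called, at -0.20, 0.039, 0.10, -0.11 and -0.0050.

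Other families found after the values were seen held 1 or a few lower members beside others that were not called. CALM2, a gene for the calcium sensor calmodulin, measured 995, 794 and 618 CPM in mock and 531, 412 and 431 CPM with dsRNA (-0.79 ± 0.0675 (SE) on the log2 scale, edgeR adjusted p = 3.15e-12). CALM3, another calmodulin gene, was not called, at 0.012. Of 20 genes of the vacuolar ATPase, which acidifies lysosomes, 4 were called lower and 0 higher, beside 2.65% of all genes called lower. These were ATP6V1E1 (-0.87), ATP6V1B2 (-0.41), ATP6V1H (-0.33) and ATP6V1A (-0.32), all of the V1 sector. The other V1 genes tested were not called, from -0.22 (ATP6V1D) to 0.22 (ATP6V1G2).

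Some close copies fell together. METTL2A and METTL2B, methyltransferase genes on chromosomes 17 and 7, fell by 0.66 and 0.76 on the log2 scale. Of 1135 aligned coding bases 1120 were identical. Bases 350 to 469 of the METTL2A coding sequence (METTL2A-201) and bases 387 to 506 of the METTL2B transcript (METTL2B-201) in GENCODE release 29 are printed, 5′ to 3′, to show the 4 bases in 120 that separate them there, in capitals.
METTL2A: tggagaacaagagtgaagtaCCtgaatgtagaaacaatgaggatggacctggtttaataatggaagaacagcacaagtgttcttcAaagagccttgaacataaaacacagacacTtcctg
METTL2B: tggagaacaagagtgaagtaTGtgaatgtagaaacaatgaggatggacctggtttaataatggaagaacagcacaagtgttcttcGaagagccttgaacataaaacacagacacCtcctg
As for RPL9, reads that match both copies could have been counted on either.

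In the zinc finger list, 14 of 427 genes were called lower and 0 higher (3.28%, beside 2.65% of all genes). ZNF587B, ZNF417 and ZNF587, relatives on chromosome 19, were at -0.58, -0.54 and -0.41, and ZNF587 and ZNF417 shared 99.07% of 1728 coding bases. ZNF844 and ZNF101 were at -0.76 and -0.69. DESeq2 with the block called 8 of the list, and 7 were called without replicate 2 and 9 without replicate 3. Of 11 NBPF genes, a family of near-identical copies looked up after the values were seen, 4 were called lower, beside 2.65% of all genes. These were NBPF3 (-0.75), NBPF9 (-0.39), NBPF15 (-0.37) and NBPF11 (-0.27).

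Among the called genes 6 pairs overlapped in the genome, and both members of each pair were lower. Besides NUDT21 and OGFOD1 these were IPP and AL604028.1, CENPN and AC092718.4, PRR11 and PRR11-AS1, HBP1 and COG5, and C8orf76 and the readthrough gene ZHX1-C8orf76. Whether reads were counted by strand is not given in the sources used here, so a member of a pair on opposite strands could hold the other's reads.

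Few genes rose. PTMS, parathymosin, a small acidic nuclear protein, measured 2182, 1925 and 1982 CPM in mock and 2663, 2313 and 2298 CPM with dsRNA (0.26 ± 0.0615 (SE) on the log2 scale, edgeR adjusted p = 0.00795). Its dsRNA libraries lay above all mock libraries. NAP1L1, a histone chaperone, measured 1241, 1725 and 1419 CPM in mock and 1518, 2201 and 1512 CPM with dsRNA (0.24 ± 0.0633 (SE) on the log2 scale, edgeR adjusted p = 0.0166). Its groups overlapped. NFRKB, of the INO80 chromatin remodeler, POC1A, a centriole protein, and UACA were higher by 0.27, 0.27 and 0.26 on the log2 scale. MROH6, SPINDOC, CACNA1A, a calcium channel, and VGF, a secreted neuropeptide precursor, were at 0.25, 0.25, 0.25 and 0.24, and KLF2P1, a pseudogene, and AC126323.1 at 0.29 and 0.32. Of the 12 largest rises all but MT-ND6 lost their calls without replicate 2, and of all 25 higher genes 2 were called without it.

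MT-ND6 (ENSG00000198695, MT:14149-14673, minus strand), a subunit of complex I, had the largest of these rises but an uneven one. It measured 64.8, 103 and 87.6 CPM in mock and 118, 129 and 87.7 CPM with dsRNA, which gave 0.87, 0.32 and 0.0021 on the log2 scale in pairs 1, 2 and 3. The rise passed the test (0.40 ± 0.0841 (SE) on the log2 scale, edgeR adjusted p = 0.00163), and the call was lost without replicate 1. The strand setting of the counting is not given in the sources used here, so the count could hold reads of the opposite strand. None of the other 12 mRNAs of the mitochondrial genome was called. The share of all counts from mitochondrial genes went from 0.974% to 1.43% in pair 1, from 1.23% to 1.27% in pair 2 and from 1.10% to 0.951% in pair 3. The part of this share in the rise of MT-ND6 was not tested. Without replicate 3, 9 of the 13 mRNAs were called higher, and without replicate 1, 0 were higher and 1 was lower.

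Of 108 genes of chromatin modifiers and remodelers, 4 were called higher (3.70%, beside 0.15% of all genes) and 1 lower. Among the higher ones were KMT2B, a histone H3 methyltransferase (0.23 ± 0.0629 (SE) on the log2 scale, edgeR adjusted p = 0.0334), CREBBP, an acetyltransferase (0.21 ± 0.0615 (SE) on the log2 scale, edgeR adjusted p = 0.0412), and KDM6B, a demethylase (0.22 ± 0.0626 (SE) on the log2 scale, edgeR adjusted p = 0.0414). KMT2B measured 224, 168 and 204 CPM in mock and 262, 214 and 219 CPM with dsRNA. Its groups overlapped. SMARCA1, an ISWI remodeler, was lower (-0.46 ± 0.0690 (SE) on the log2 scale, edgeR adjusted p = 6.59e-06). The count of rises was 0 without replicate 2, 1 without replicate 3 and 6 without replicate 1, and 2 with an offset for GC content.

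The other lists had few or no calls. Giant linker and scaffold proteins had 0 of 40 genes called, with a median of 0.13, and FLNA, a filamin, and TLN1, a talin, stood at 0.10 and 0.083. Without replicate 1, 8 of them were called higher, and with an offset for GC content 7. Extracellular matrix and integrin genes had 0 of 87 called and a median of 0.11, with COL1A1, a collagen, at 0.18 and ITGB5, an integrin, at 0.056. The snoRNA host lncRNAs had 0 of 28 called, with SNHG29 at -0.029 and SNHG14 at 0.0083.

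The transcripts that the study names for their length had 0 of 12 called. AHNAK, a giant scaffold, was at 0.16 on the log2 scale, BCL9L at 0.13, ZNF704 at 0.087, MAP1A at 0.083, DYNC1H1 at 0.080, AHNAK2 at 0.075, PEG3 at 0.060 and CDK6 at -0.029. RPL39 was at -0.10, RPS29 at -0.090, GAPDH at -0.085 and RPL31 at -0.078. Without replicate 1, AHNAK was called higher.

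Of 52 DEAD-box and DEAH-box helicases, DDX20 (-0.38) and DHX32 (-0.31) were lower, of 120 splicing factors SNRPG (-0.37) and RBM43 (-0.39), and of 71 RNA decay genes CNOT11 (-0.36) and CNOT6 (-0.27), both of the CCR4-NOT deadenylase. These are 3.85%, 1.67% and 2.82% of the 3 lists, beside 2.65% of all genes. Single lower genes were TUBGCP4 (-0.33) among 34 of actin and tubulin (2.94%) and MYO1D (-0.30) among 91 motor proteins (1.10%). LDHB (-0.30) among 18 glycolytic enzymes (5.56%) and OIP5-AS1 (-0.23) among 11 nuclear-retained lncRNAs (9.09%) were others. Without replicate 2 the calls of DHX32, RBM43, CNOT11, CNOT6, MYO1D, LDHB and OIP5-AS1 were lost.

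Silvestrol pellets allowed the same genes to be read under another block of translation. In dsRNA against silvestrol pellets, 414 genes were lower (2.49%) and 39 higher (0.235%) in edgeR with the block. In silvestrol against mock pellets 0 were lower and 2 were higher (0.012%), while at an unadjusted p under 0.05, 500 were lower and 578 higher. The counts of calls depended on replicate 3, without which 58 were lower and 112 higher. The comparisons share libraries, so values are given side by side only, for dsRNA against mock, dsRNA against silvestrol and silvestrol against mock in this order. KRT10 had -1.47, -1.34 and -0.13 on the log2 scale, RPL9 -1.29, -1.17 and -0.11, PSMA5 -1.21, -0.99 and -0.21, COPB1 -1.05, -0.98 and -0.057 and CCNG1 -1.01, -0.89 and -0.12.

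The 12 largest falls were also called lower in dsRNA than in silvestrol pellets, with edgeR adjusted p-values up to 7.74e-10 (MED18), and none was called in silvestrol against mock with all replicates. EIF2AK2 had -0.54, -0.45 and -0.085 in the same order, G3BP1 -0.42, -0.37 and -0.047 and G3BP2 -0.37, -0.30 and -0.072, each called in the first and second comparison but not in the third. EIF2S1, at -0.16, -0.13 and -0.019, was not called in any of them. Of the 12 largest rises, NAP1L1 (0.37), UACA (0.28), POC1A (0.27) and NFRKB (0.27) were also called higher in dsRNA than in silvestrol pellets. PTMS at 0.072 and MT-ND6 at 0.18 (edgeR adjusted p = 0.227) were among those that were not.

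Properties of the lower genes are given beside those of all genes tested, without a test. Their median GC content over exons was 44.0%, against 49.6% for all genes and 56.2% for the higher genes. Their median summed exon length was 4.99 kb, against 4.43 kb for all genes and 6.33 kb for the higher genes. Their median level was 5.34 log2 CPM, against 4.38 for all genes, and level bears on whether a gene can be called. Of the genes in the lowest of 5 bins of level 0.271% were called lower, against 3.16%, 4.09% and 3.55% in the 3 highest. Of the 441, 411 were protein coding (93.2%, against 81.5% of all genes), 12 were pseudogenes and 18 were other noncoding genes. When all genes were divided by GC content into 5 bins of like size, 138, 191, 91, 18 and 3 genes were called lower from the lowest to the highest bin, which is 4.17%, 5.78%, 2.75%, 0.544% and 0.0907% of the bins.

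GC content moved with the changes of all genes, and mostly in 1 pair. Over 16529 genes, which do not count as independent replicates, Spearman's correlation of GC content with the log2 fold change was 0.529 in pair 1, 0.0287 in pair 2 and 0.112 in pair 3. With a GC offset fitted per library 430 genes were lower, of which 392 were among the 441, and 112 were higher, of which 15 were among the 25. Without replicate 1, 493 were lower, 401 of them among the 441, and 166 higher. The part of the GC trend in single calls was not tested.

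**Figure D2:**
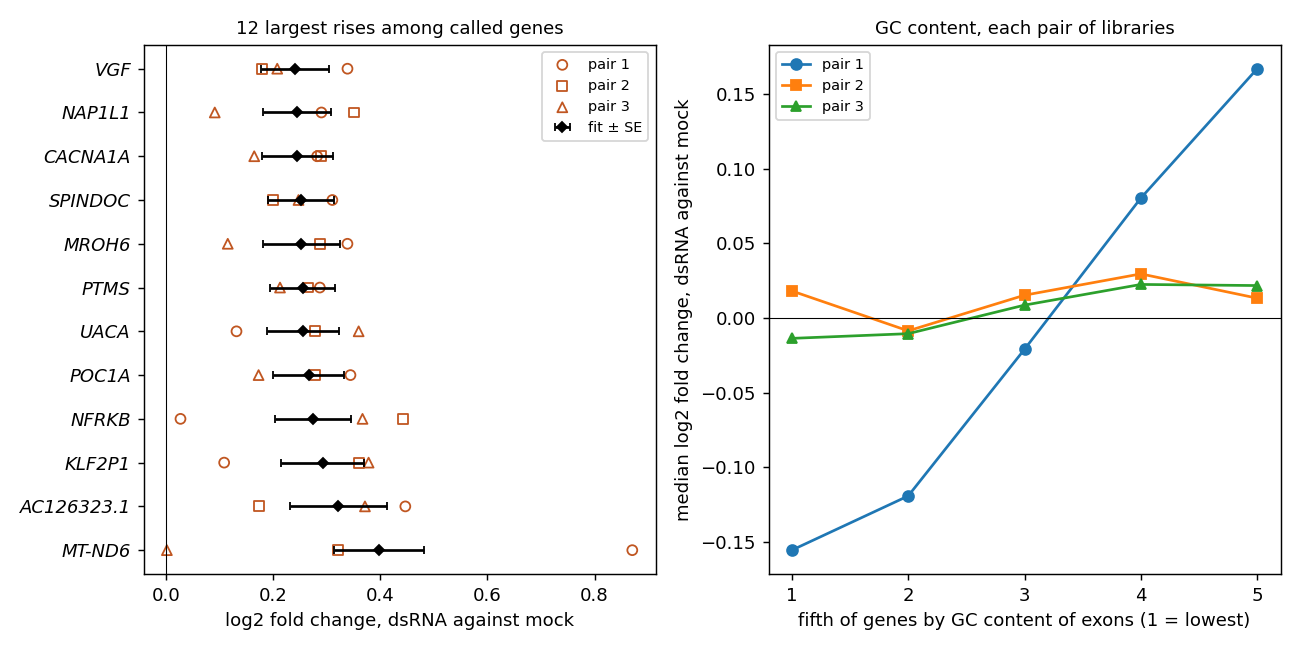
The left panel shows the change (log2 fold change) of the 12 largest rises in each pair of libraries (open symbols) and in the fit with its standard error (black). The right panel shows the median change of the genes in 5 bins of GC content, by pair, which runs from -0.16 to 0.17 in pair 1 and stays between -0.014 and 0.030 in pairs 2 and 3.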

How the data were processed

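Poly(A)-selected RNA was sequenced from 15 libraries, of which 3 dsRNA and 3 mock pellet libraries were compared. The authors deposited, per library, raw counts of reads per gene (57500 genes) without normalisation. The submitters' processing notes name Trimmomatic 0.36, STAR 2.5.2b, featureCounts of Subread 1.5.2 and GRCh38. The annotation release, strand setting and handling of multiply mapped reads are not given in the sources used here. Gene identifiers were matched to GENCODE release 29 (56898 found, 54784 with the same start and end), and 16539 of 16612 tested genes had a symbol.

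Counts were fitted with edgeR 4.0.16 in R 4.3.3 (TMM, quasi-likelihood F test, replicate number as a block, Benjamini-Hochberg adjustment over 16612 genes, prior count of 2 for fold changes). The study names DESeq2, and DESeq2 1.42.0 was an alternative. The block follows from pairing the libraries by replicate number, which was set for this comparison. Deviations of same-numbered libraries correlated at 0.610 to 0.842. Those of replicates 2 and 3 with each other also correlated (0.511 and 0.537), so the correlations do not establish the pairing. In simulated counts of 16612 genes, 200 were changed. The fit with the block found 84 at a log2 fold change of 0.3, 161 at 0.5 and 193 at 1. Its false calls were 4, 5 and 8, and the fit without the block found 0, 0 and 87. The simulation gave each replicate number its own profile and all genes the spread of the fit with the block. The pairing was thus built in, and the simulation cannot show whether the libraries are paired. The labels and the study call the replicates biological. What was repeated between them is not given in the sources used here, and p-values measure only the spread between these libraries. Standard errors were taken from the fold change and the F statistic. Per-sample levels are TMM-scaled CPM.

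Named genes were G3BP1, G3BP2, EIF2AK2, EIF2S1, the 12 largest falls and rises among called genes (average log2 CPM 3 or more, same direction in 3 pairs), the 6 smallest adjusted p, up to 4 called members of each of 30 lists (2 of the highest level where none was called), and 12 transcripts of the study; other names are called members or were chosen after their values were seen. The members and lists were chosen with earlier results of these data known, and no list was tested. Alternatives were other tools, scalings, filters, offsets for GC content and length, thinning, all 5 groups in 1 fit, a prior count of 0.5 and each replicate left out. Some genes and 1 sequence comparison are not reported here.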

Additional observations from a re-analysis of the deposited data

How the results depend on the processing

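In dsRNA against mock, the 441 lower genes stayed below 0 and the 25 higher genes above 0 under all alternatives run, and none was called in the opposite direction. Since 440 of the 441 and all 25 had 1 direction in 3 of 3 pairs, leaving out a replicate could hardly turn them. The counts of calls varied. Without the replicate block 0 genes were lower and 0 higher in edgeR, and 65 and 0 in DESeq2. With all 5 groups in 1 fit 132 were lower and 1 higher. The count of lower genes stayed within 1.5 times under the other settings with all replicates. The count of higher genes was 16 with DESeq2 and the block, 50 with DESeq2's size factors, 45 with filterByExpr, 112 with the GC offset and 39 with the length offset. Leaving out 1 replicate gave 225 (without replicate 2) to 493 lower and 10 to 166 higher genes. In dsRNA against silvestrol these ranges were 231 to 563 lower and 11 to 305 higher, and 0 and 0 without the block. In silvestrol against mock they were 0 to 112 higher and 1 to 58 lower, and without the block 0 were higher. The causes were not tested.

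Apart from edgeR without the block, EIF2AK2 and the 12 largest falls were called in every alternative run, whereas G3BP1 and G3BP2 lost their calls with all 5 groups in 1 fit and G3BP2 also in DESeq2 without the block. The 12 largest rises lost theirs in both fits without the block and with all 5 groups in 1 fit. Signs turned for values near 0 that were not called. Leaving out 1 replicate moved dsRNA against mock over -0.017 to 0.11 (ITGB5), -0.092 to 0.015 (SNHG29), -0.030 to 0.032 (SNHG14), -0.13 to 0.0013 (RPL31), -0.083 to 0.024 (CDK6) and -0.17 to 0.032 (RPL39), silvestrol against mock over -0.19 to 0.0021 (RPL9), -0.078 to 0.055 (EIF2S1), -0.075 to 0.036 (ORC5), -0.14 to 0.035 (ETFA), -0.068 to 0.11 (NFRKB) and -0.012 to 0.019 (POC1A), and dsRNA against silvestrol over -0.10 to 0.14 (KLF2P1) and -0.065 to 0.17 (PTMS) on the log2 scale. SNHG14 was at -0.057 with the length offset, CDK6 at 0.029 with the GC offset, and NFRKB in silvestrol against mock at -0.0020 without the block. Depth limits genes of low level, and of the 3323 genes with the lowest level 9 were called lower.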
